A study of Mus musculus with 18 samples.

Results

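Blood coagulation and fibrinolysis were followed through 33 genes of mouse liver, given as a list of symbols for clotting factors, their inhibitors, the fibrinolytic system, vitamin K-dependent carboxylation and a few proteases and growth factors close to them. The fibrinogen chain genes are not on the list and are described apart from it. The 33 symbols were all found among the 24394 gene symbols of the deposited count table, and 32 of them had enough counts to be tested. The exception was F3, tissue factor, the cell-surface starter of the extrinsic pathway, which had 0 counts in 2 of 6 control livers, 3 of 6 livers of tumour-bearing WT mice and 4 of 6 livers of tumour-bearing Stat3-deleted mice, and never exceeded 0.705 CPM (counts scaled for library size).

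Clotting is a chain of serine proteases that circulate as inactive precursors, most of them made and secreted by hepatocytes. The contact system (factor XII, prekallikrein, high molecular weight kininogen, factor XI) and the tissue factor pathway both lead to factor X and thrombin, which turns fibrinogen into fibrin, and antithrombin, heparin cofactor II, protein C and related inhibitors hold the chain in check. Plasmin dissolves the fibrin, while alpha-2-antiplasmin and carboxypeptidase B2 slow that step. Several factors work only after vitamin K-dependent carboxylation in the endoplasmic reticulum (ER).

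Of the 18 livers, 6 are from control WT mice, 6 from tumour-bearing WT mice and, also tumour-bearing, 6 from the genotype Alb-Cre+/+;Stat3f/f (Stat3-deleted below). In the last group Cre recombinase is driven by the albumin promoter, which is active in hepatocytes, and floxed Stat3, the gene of a transcription factor of the interleukin-6 family response, is its target. In which cells of these livers it was lost was not measured. Tumours are named as PDA.69, a pancreatic ductal adenocarcinoma (PDAC) line derived from KPC mice and described as low in T cells. The same line also stands in the labels of the control livers, which are titled as controls. Not given in the sources used here were age, sex, the site of the tumour and the time since its implantation, and no tumour-free Stat3-deleted group was analysed. Replicates are separately numbered livers, but nothing states that each is a separate mouse, so p-values measure the spread between these samples.

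Libraries held 5212265 to 9545442 counts, with 5212265 to 7159148 in control, 6168658 to 8850200 in WT tumour-bearing livers and 7222882 to 9545442 in Stat3-deleted livers. Stat3 itself read 112 ± 19.1 CPM in control, 213 ± 38.3 in WT tumour-bearing livers and 118 ± 12.8 in Stat3-deleted livers (SD, n = 6 each). Reads of this assay come from the 3′ end of the transcript, so this value does not measure the loss of the floxed exons. Hepatocyte markers were abundant in every library, their 11 measured genes summing to 69620 to 103300 CPM in control, 73520 to 168800 in WT tumour-bearing livers and 113000 to 137000 in Stat3-deleted livers. Replicate 6 of the tumour-bearing WT group stood apart from the other livers of that group, and replicate 4 from all but replicate 3. Chi-square per degree of freedom was 60.8 to 118 for pairs with replicate 6, and 11.8 to 53.9 among the 4 livers other than replicates 4 and 6. Replicate 4 gave 52.3 with replicate 3 and 87.4 to 105 with the others. Pairs of control livers reached 80.1, and this measure grows with the size of the libraries. Replicate 4 held the highest neutrophil (356 CPM) and Kupffer cell (1921 CPM) marker sums of the group and the highest value of Serpina10. Replicate 6 held the highest hepatocyte marker sum of its group (168800, the others 73520 to 114400) and the highest value of Kng1, Kng2, Cpb2, Hrg, F2, Plg and Pros1. The labels also carry a number for each liver. Replicates 1 to 3 of both WT groups lie in a lower run of these numbers and replicates 4 to 6 in a higher one, and the Stat3-deleted livers have a run of their own. What the runs stand for is not stated, and for the Stat3-deleted group run and genotype cannot be told apart.

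Promoters of 4 genes are shown. Of these, 3 belong to genes called lower in Stat3-deleted than in tumour-bearing WT livers (Kng2, Cpb2, Hrg). The other, F9, passed the test in none of the comparisons and was the only gene with matches to all 3 motifs named below. It does not stand for the other genes called in none, some of which, such as F2 and F5, had no match. RefSeq (GRCm38.p6) gave the window from 250 bases before to 50 after the annotated start for 27 of the 33 genes, 29 promoters in all. Kng1 and Serpina10 have no entry. Capitals mark matches, on either strand, to 3 motifs: TTCNNNGAA, a STAT element, CTGGGAA, an acute-phase element, and TTGCNNAA, an element of the C/EBP family. The motifs were chosen after expression values had been seen. The windows are chr16:23029052-23029351 on the minus strand for Kng2, chr14:75242037-75242336 on the plus strand for Cpb2, chr16:22950822-22951121 on the plus strand for Hrg and chrX:59999214-59999513 on the plus strand for F9.
Kng2: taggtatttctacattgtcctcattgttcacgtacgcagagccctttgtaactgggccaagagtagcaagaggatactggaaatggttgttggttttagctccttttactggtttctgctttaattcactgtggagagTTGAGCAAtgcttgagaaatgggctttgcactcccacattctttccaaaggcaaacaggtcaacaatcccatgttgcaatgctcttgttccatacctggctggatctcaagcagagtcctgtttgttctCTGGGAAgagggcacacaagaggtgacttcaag
Cpb2: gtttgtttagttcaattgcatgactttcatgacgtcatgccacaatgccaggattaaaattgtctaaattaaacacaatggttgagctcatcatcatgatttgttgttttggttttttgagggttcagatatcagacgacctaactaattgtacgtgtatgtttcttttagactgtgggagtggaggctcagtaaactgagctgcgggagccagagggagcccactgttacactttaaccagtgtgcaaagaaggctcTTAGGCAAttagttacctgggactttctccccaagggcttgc
Hrg: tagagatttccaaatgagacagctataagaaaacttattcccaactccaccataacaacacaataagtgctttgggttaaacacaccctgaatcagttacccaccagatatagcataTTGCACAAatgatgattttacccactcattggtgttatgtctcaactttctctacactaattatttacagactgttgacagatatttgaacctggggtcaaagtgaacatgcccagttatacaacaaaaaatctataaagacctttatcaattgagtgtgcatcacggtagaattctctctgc
F9: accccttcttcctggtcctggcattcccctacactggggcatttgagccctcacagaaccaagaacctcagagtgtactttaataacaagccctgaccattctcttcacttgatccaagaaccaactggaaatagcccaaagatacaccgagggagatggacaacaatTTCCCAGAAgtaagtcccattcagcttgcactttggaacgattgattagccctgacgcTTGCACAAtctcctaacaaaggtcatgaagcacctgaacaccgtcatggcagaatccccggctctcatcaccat

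Kng2 carried 1 C/EBP match beginning 112 bases before the start and 1 acute-phase match beginning 17 bases after it. Cpb2 and Hrg carried a C/EBP match each, the first 8 bases after the start and the second 133 bases before it. F9 held matches to all 3 motifs, and its STAT and acute-phase matches overlap, both beginning 82 bases before the start used for this window. That start is not the first base of the annotated gene F9, chrX:59999329. The first base lies ahead of the F9 matches, so they fall within the annotated gene. Over all 29 promoters the STAT element was found in 3 (F9, Hgfac, Pros1), the acute-phase element in 4 (F9, Hgf, Kng2, Tfpi) and the C/EBP element in 10. Among all 32851 promoters in the table these elements were found in 8.3%, 11.1% and 10.8%. The 10 are Cpb2, F11, F9, Ggcx, Habp2, Hrg, Klkb1, Kng2, Procr and Serpinc1. Klkb1 was called higher in Stat3-deleted than in tumour-bearing WT livers. F11, F9, Ggcx, Habp2, Procr and Serpinc1 were called in no comparison. Mcfd2 and Hgf, also called lower in Stat3-deleted livers, have promoters not printed here. That of Mcfd2 matched none of the 3 motifs, and Hgf held an acute-phase match but no C/EBP match. The HNF1 site, an element of hepatocyte genes, was found in 0 of the 29 and in 0.00913% of all. A match describes letters in this window and shows no binding.

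Livers of tumour-bearing WT mice differed from control livers in 4 of the 32 tested genes, all of them higher. They were Kng1 and Kng2, which encode kininogens, Serpina10, the protein Z-dependent inhibitor of factor Xa, and Cpb2, carboxypeptidase B2, and their fitted increases ran from 1.73-fold to 2.42-fold. Calls rest on edgeR's quasi-likelihood test with Benjamini-Hochberg adjustment over all 11218 tested genes, at an adjusted p under 0.05. By that test 1.76% of all genes were higher and 0.49% lower in the same comparison, 2.25% in either direction. At an unadjusted p under 0.05, 11 members were higher and 1, Klkb1, lower, where 8.63% of all tested genes were higher and 7.56% lower. Log2 fold changes of the 32 genes had a median of 0.22, against 0.004 over all tested genes, with 27 above 0 and 5 below. The 11 hepatocyte markers had a median of 0.26, with 6 above 0 and 5 below, so a median of this size is not particular to the clotting genes. Ranges of the 2 groups did not overlap for Serpina10 and Cpb2, both higher, and for Klkb1, lower, where 1.05% of all genes were higher and 0.464% lower without overlap. In bulk tissue a change in RNA per cell and a change in the number of cells of a type cannot be told apart. With library totals as the only scaling the median of all genes moved to -0.19 and that of the 32 genes to 0.03, while the same number of members, 4, was called higher and 1 was called lower. The number called higher was 8 with DESeq2, 2 in a fit of the 2 WT groups alone, 1 and 0 within the lower and the higher run of label numbers, and 7 without tumour-bearing WT replicate 5. DESeq2 called 462 of all 11218 tested genes in either direction, where edgeR called 252.

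Within tumour-bearing mice, Stat3-deleted livers had lower RNA of 7 members and higher RNA of 1. The 7 were Serpina10, Cpb2, Kng2, Kng1, Mcfd2, Hrg and Hgf, lower by 1.47-fold to 2.46-fold, and the 1 was Klkb1, plasma prekallikrein, higher by 1.32-fold. The 4 genes that were higher in tumour-bearing WT than in control livers were all among the 7; both comparisons use the same tumour-bearing WT livers, so the 2 sets of values are not independent of each other. Over all tested genes 3.23% were lower and 2.89% higher, 6.12% in all. At an unadjusted p under 0.05, 11 members were lower and 3 higher, against 10.7% and 8.7% of all genes. Median log2 fold changes were -0.21 over the 32 genes and -0.03 over all genes, with 24 of the 32 below 0. For the 11 hepatocyte markers the median was 0.09, with 3 below 0 and 8 above. Serpina10 and Cpb2 (lower) and Klkb1 (higher) had ranges that did not overlap, as had 1.9% (lower) and 1.4% (higher) of all genes. Of the 7 lower calls 4, the 2 kininogens, Serpina10 and Cpb2, held when any single library was left out, whereas those of Hrg, Mcfd2 and Hgf, and that of Klkb1, did not. Without replicate 3 of the tumour-bearing WT group, or replicate 3 of the Stat3-deleted group, 4 members were called lower, and in a fit of the 2 groups alone 3 were.

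Compared with control livers, tumour-bearing Stat3-deleted livers had 0 members called higher and 0 called lower by edgeR, while 4.85% of all genes were called (2.19% higher, 2.66% lower). At an unadjusted p under 0.05, 6 members were higher (F2, Proc, Thbd, Serpinf2, Vkorc1, Hgfac) and 2 lower (Mcfd2, Hgf), against 9.35% and 11.5% of all tested genes. DESeq2 called 0 in either direction, and limma's voom with sample quality weights called 4 higher (F2, Proc, Serpinf2, Vkorc1) and 0 lower. Voom called 1318 of all 11218 tested genes in this comparison, where edgeR called 544. A fit of the 2 groups alone called 3 higher (F2, Thbd, Serpinf2). Ranges overlapped for all 32 genes, while 1.98% of all tested genes lay higher and 1.84% lower without overlap. The median log2 fold change was 0.04 over the 32 genes, -0.01 over all genes and 0.39 over the 11 hepatocyte markers.

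**Figure D1:**
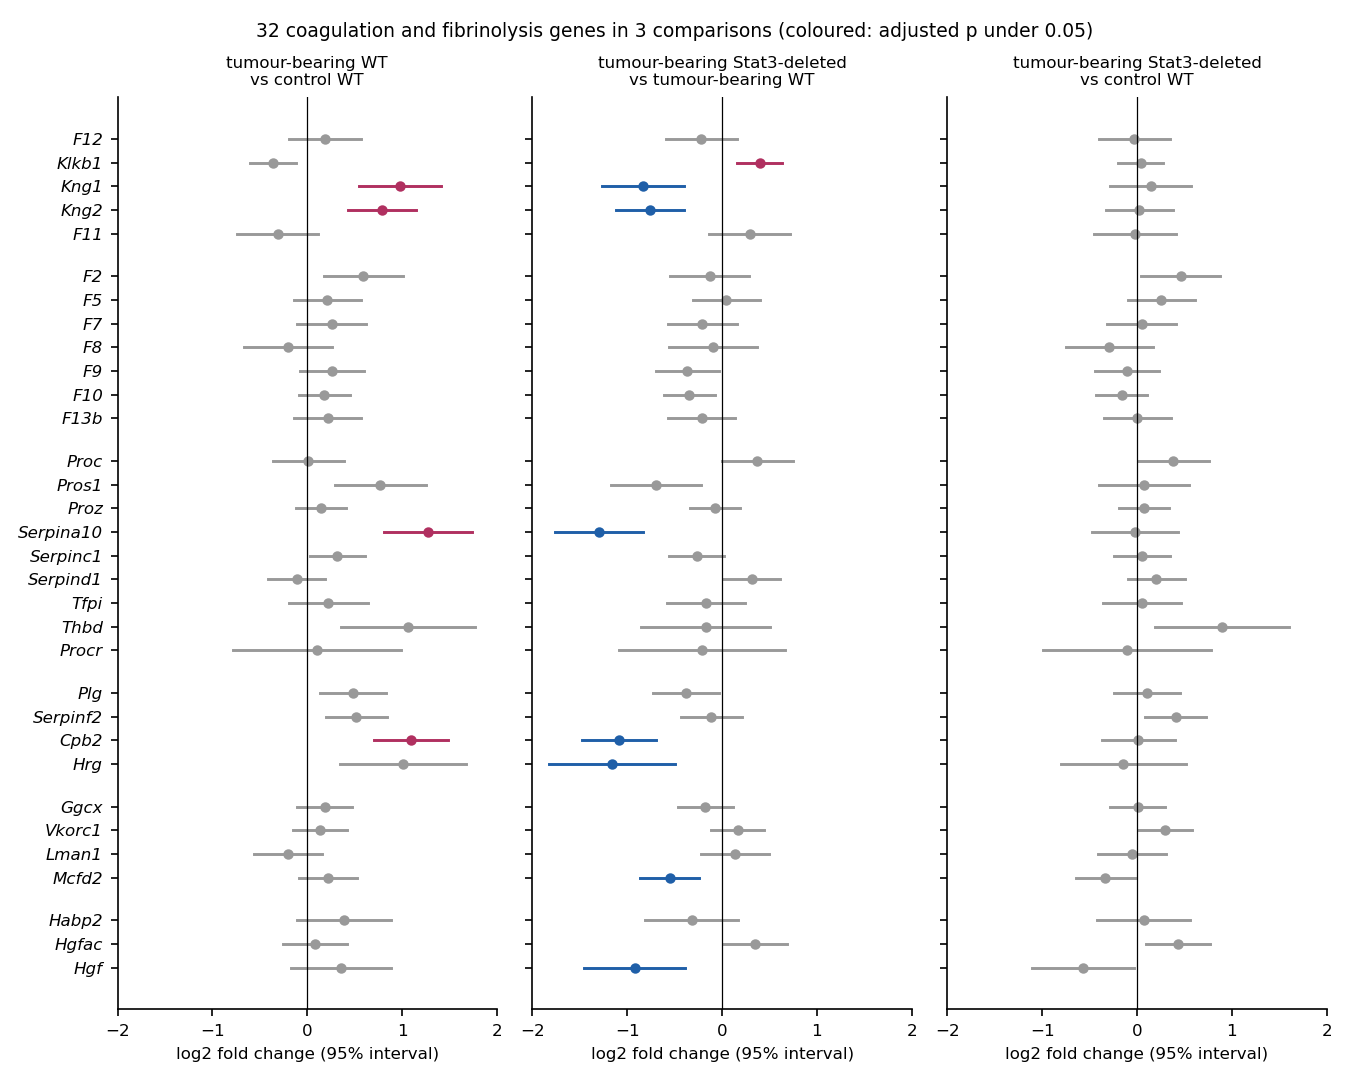
Log2 fold change of the 32 tested genes in the 3 comparisons, 1 panel each; points are edgeR estimates, lines 95% intervals, and colour marks an adjusted p under 0.05 (red higher, blue lower). Coloured points are the 4 higher genes in the left panel and the 7 lower and 1 higher genes in the middle, and the right panel holds none.

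Of the 5 contact and kinin genes, both kininogen genes rose in tumour-bearing WT livers and were lower again with Stat3 deleted. Of all tested genes 1.76% and 3.23% were called in these directions. Kng1 and Kng2 encode kininogens, the carriers from which kallikrein releases bradykinin, and they lie side by side at chr16:23058220-23082078 and chr16:22985852-23029101 (GRCm38.p6), next to Hrg at chr16:22951072-22961659. Gaps between these 3 genes are 24193 and 29119 bases, with 0 coding genes between. Kng1 read 2192, 2691, 2549, 2280, 2941 and 2508 CPM in control replicates 1 to 6, and 3454, 2704, 5098, 5920, 4163 and 8547 CPM in tumour-bearing WT replicates 1 to 6. In Stat3-deleted livers it read 2439, 2524, 2715, 2995, 3577 and 2516 CPM. Tumour-bearing WT replicate 2 lay inside the control range and the other 5 above it, replicate 6 highest, while 4 of the 6 Stat3-deleted livers fell within the control range and 2 above it. The log2 difference was 0.98 (SE 0.21, edgeR adjusted p = 0.011) for tumour-bearing WT against control and -0.83 (SE 0.21, adjusted p = 0.016) for Stat3-deleted against tumour-bearing WT livers. Against control, Stat3-deleted livers differed by 0.15 (95% interval -0.28 to 0.57, adjusted p = 0.75).

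Kng2 showed the same order of group means, with the highest in tumour-bearing WT livers. Control livers spanned 307 to 421 CPM (median 358), tumour-bearing WT livers 369 to 904 (median 588) and Stat3-deleted livers 315 to 450 (median 351). Again replicate 2 of the tumour-bearing WT group lay inside the control range and replicate 6 was highest. Log2 differences were 0.79 (SE 0.17, adjusted p = 0.014) and -0.76 (SE 0.17, adjusted p = 0.0086) for the first and second comparison, and 0.03 (95% interval -0.33 to 0.38) for the third. Of the 50-base words in the last 500 bases of its transcripts, 19.7% also occur in Kng1, and 10.7% of those of Kng1 occur in Kng2, so part of their reads may not be separable. With the counts of both genes summed, an alternative added after the data were seen, the differences were 0.96 (adjusted p = 0.011) and -0.83 (adjusted p = 0.016).

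Some calls of the 2 kininogen genes depended on the joint fit of all groups. With the 2 WT groups alone adjusted p was 0.056 for Kng1 and 0.06 for Kng2, and with the 2 tumour-bearing groups alone it was 0.052 for Kng1. Within the lower run of label numbers, 3 livers against 3, the log2 differences were 0.59 and 0.44, and within the higher run 1.26 and 1.08, and none of these passed the threshold (adjusted p = 0.54, 0.68, 0.14 and 0.12). Without tumour-bearing WT replicate 6 the differences from control were 0.75 (adjusted p = 0.023) and 0.64 (adjusted p = 0.038), and without replicate 4 they were 0.92 (adjusted p = 0.035) and 0.72 (adjusted p = 0.049).

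Klkb1 encodes plasma prekallikrein, the protease that cleaves kininogen, and lies at chr8:45266688-45294835, 4633 bases from F11. It moved the other way from its substrates. Control livers read 168 to 210 CPM (median 180), tumour-bearing WT livers 117 to 164 (median 145) and Stat3-deleted livers 167 to 203 (median 195). All 6 tumour-bearing WT livers lay below all 12 others. The gene was called higher in Stat3-deleted than in tumour-bearing WT livers, by 0.40 (SE 0.12, adjusted p = 0.041), but missed the threshold against control at -0.36 (SE 0.12, adjusted p = 0.11), where DESeq2 (adjusted p = 0.042), voom (adjusted p = 0.044) and library totals (adjusted p = 0.022) called it lower. The call in the second comparison ended when any of 10 libraries was left out, in a fit of the 2 groups alone (adjusted p = 0.07) and with no filter on low counts (adjusted p = 0.079).

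The remaining contact genes passed edgeR's test in no comparison. F12, factor XII, the starter of the contact pathway, averaged 640 ± 166, 729 ± 184 and 627 ± 95.9 CPM in control, tumour-bearing WT and Stat3-deleted livers (SD, n = 6 each), with log2 differences of 0.19 (95% interval -0.19 to 0.56) and -0.22 (-0.59 to 0.16). F11, factor XI, averaged 24.7 ± 7.36, 19.9 ± 5.84 and 24.4 ± 3.94 CPM, with differences of -0.31 (-0.74 to 0.12) and 0.29 (-0.14 to 0.72).

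**Figure D2:**
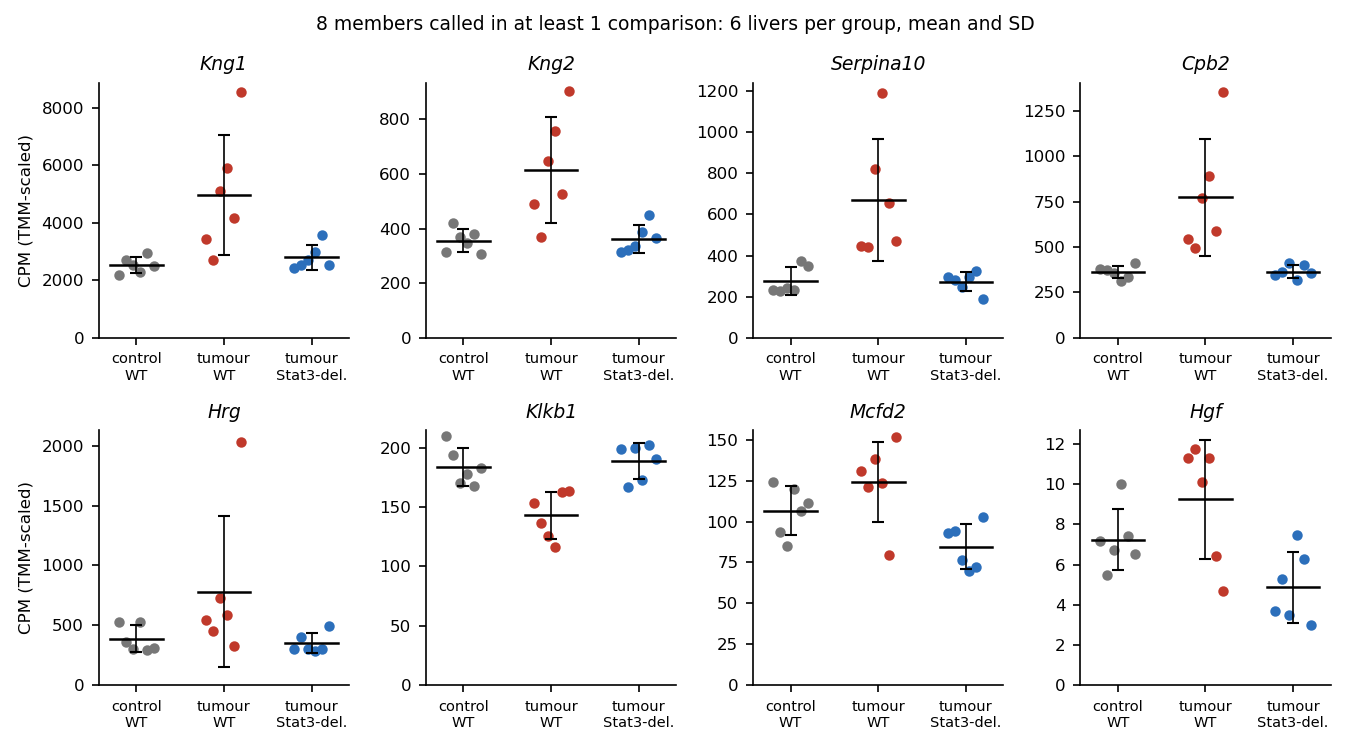
CPM of the 8 genes called by edgeR in at least 1 comparison, in 6 livers of each group; points are livers in replicate order, bars the mean and SD, and each axis starts at 0. For Serpina10 and Cpb2 every tumour-bearing WT liver lies above every other liver, for Klkb1 every one lies below, and for Hrg 1 liver reads 2035 CPM.

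Among the 9 inhibitors of clotting, Serpina10 was the one that passed edgeR's test, which 2.25%, 6.12% and 4.85% of all tested genes passed in the 3 comparisons. Its product, the protein Z-dependent protease inhibitor, blocks factor Xa on membranes together with protein Z and also inhibits factor XIa; the gene lies at chr12:103616675-103631490. Control livers read 235, 230, 242, 231, 375 and 347 CPM and tumour-bearing WT livers 446, 442, 821, 1190, 656 and 470 CPM. Stat3-deleted livers read 294, 281, 248, 298, 324 and 190 CPM. Tumour-bearing WT livers stood clear of the other 12, with replicate 4 highest, not replicate 6. Log2 differences were 1.28 (SE 0.22, adjusted p = 0.0018), 2.42-fold, and -1.30 (SE 0.22, adjusted p = 0.0007) for the first and second comparison. Against control, Stat3-deleted livers differed by -0.02 (95% interval -0.48 to 0.43). Within the lower run of label numbers the first difference was 1.27 (adjusted p = 0.041) and within the higher run 1.27 (adjusted p = 0.16). Without tumour-bearing WT replicate 4 it was 1.03 (adjusted p = 0.0046), and without replicate 6 it was 1.36 (adjusted p = 0.001).

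Proz, which encodes the cofactor protein Z, was measured at 56.8 ± 4.89, 62.9 ± 12.6 and 59.8 ± 4.64 CPM, and its log2 difference in the first comparison was 0.15 (95% interval -0.12 to 0.41). Pros1, protein S, the cofactor of activated protein C, had the smallest adjusted p in the first 2 comparisons among the members that edgeR did not call. It read 42.2 to 85.0 CPM in control, 65.5 to 218 in WT tumour-bearing livers and 57.2 to 71.6 in Stat3-deleted livers, with differences of 0.77 (SE 0.23, adjusted p = 0.083) and -0.70 (SE 0.23, adjusted p = 0.079). Replicate 6 of the tumour-bearing WT group supplied the 218 CPM, and without it the values were 0.40 (adjusted p = 0.21) and -0.33 (adjusted p = 0.21). Without replicate 5 both passed, at 0.87 (adjusted p = 0.04) and -0.80 (adjusted p = 0.035), and DESeq2 called the first with all livers (0.77, adjusted p = 0.036).

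Proc, the protein C precursor, averaged 404 ± 65.0, 408 ± 146 and 528 ± 83.0 CPM, so that the Stat3-deleted group had the highest mean. Its log2 difference between Stat3-deleted and tumour-bearing WT livers was 0.37 (95% interval -0.0025 to 0.75, adjusted p = 0.26). Without tumour-bearing WT replicate 6 that difference was 0.59 and passed (adjusted p = 0.015), as it did with voom (0.53, adjusted p = 0.022). Serpinc1, antithrombin, the main plasma inhibitor of thrombin, averaged 1850 ± 331, 2308 ± 322 and 1918 ± 112 CPM, with differences of 0.32 (0.03 to 0.61, adjusted p = 0.26) and -0.27 (-0.56 to 0.02). Serpind1, heparin cofactor II, averaged 465 ± 96.7, 431 ± 66.0 and 535 ± 61.4 CPM, with differences of -0.11 (-0.41 to 0.19) and 0.31 (0.01 to 0.61, adjusted p = 0.23).

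The 3 inhibitor genes that act at the endothelial surface had few counts. Thbd, thrombomodulin, which redirects thrombin to protein C, read 3.67 to 7.62 CPM in control, 4.10 to 19.8 in WT tumour-bearing livers and 5.87 to 18.9 in Stat3-deleted livers. Its differences from control were 1.07 (95% interval 0.36 to 1.77, adjusted p = 0.11) and 0.90 (0.19 to 1.60, adjusted p = 0.13), the largest among the members that edgeR did not call. The first of them was called by DESeq2 (adjusted p = 0.046) and without tumour-bearing WT replicate 5 (adjusted p = 0.033). Tfpi, tissue factor pathway inhibitor, averaged 8.02 ± 1.95, 9.36 ± 1.45 and 8.29 ± 1.68 CPM. Procr, the endothelial protein C receptor, averaged 2.26 ± 2.14, 2.38 ± 0.561 and 2.05 ± 0.981 CPM, with an interval of -0.78 to 0.99 in the first comparison. Endothelial markers summed to 616 to 777, 599 to 745 and 752 to 876 CPM in the 3 groups, and their part in these values was not tested.

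Of the 4 fibrinolysis genes 1 was called higher against control and 2 lower with Stat3 deleted. Of all tested genes 1.76% and 3.23% were called in these directions. Cpb2 encodes the carboxypeptidase also named thrombin-activatable fibrinolysis inhibitor, which trims fibrin so that it binds less plasminogen, at chr14:75242287-75283555. In control livers it read 378, 374, 359, 314, 334 and 411 CPM, and in tumour-bearing WT livers 546, 495, 768, 892, 589 and 1353 CPM. Stat3-deleted livers read 347, 363, 412, 316, 399 and 355 CPM. Every tumour-bearing WT liver exceeded every other liver, and the control and Stat3-deleted ranges nearly coincided. Log2 differences were 1.10 (SE 0.19, adjusted p = 0.0016), 2.14-fold, and -1.08 (SE 0.19, adjusted p = 0.00082), while Stat3-deleted and control livers differed by 0.01 (95% interval -0.37 to 0.40). Within the lower and higher runs of label numbers, 3 livers against 3, the first difference was 0.70 (adjusted p = 0.25) and 1.41 (adjusted p = 0.093). Without tumour-bearing WT replicate 6 it was 0.86 (adjusted p = 0.0013), and without replicate 4 it was 1.05 (adjusted p = 0.0057).

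Hrg encodes histidine-rich glycoprotein, a plasma protein that binds heparin, plasminogen and fibrinogen. It read 289 to 530 CPM (median 333) in control, 327 to 2035 (median 566) in WT tumour-bearing livers and 288 to 497 (median 304) in Stat3-deleted livers. Replicate 6 of the tumour-bearing WT group gave the 2035 CPM, the next highest liver 729, and replicates 2 and 5 of that group lay inside the control range. The difference between Stat3-deleted and tumour-bearing WT livers was -1.16 (SE 0.32, adjusted p = 0.032), and that between tumour-bearing WT and control livers, 1.01 (SE 0.32, adjusted p = 0.10), was not called by edgeR. DESeq2 called the latter (1.02, adjusted p = 0.034), and so did edgeR without tumour-bearing WT replicate 5 (1.17, adjusted p = 0.037). Without replicate 6 the values were -0.59 (adjusted p = 0.09) and 0.44 (adjusted p = 0.33), and leaving out any of 7 libraries ended the call between the tumour-bearing groups.

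Plg, plasminogen, averaged 1944 ± 230, 2725 ± 901 and 2088 ± 138 CPM, with differences of 0.49 (SE 0.17, adjusted p = 0.14) and -0.38 (SE 0.17, adjusted p = 0.20). Its highest tumour-bearing WT liver, replicate 6, read 4452 CPM, and without it the first difference was 0.28. Serpinf2, alpha-2-antiplasmin, the inhibitor of plasmin, averaged 512 ± 72.5, 733 ± 184 and 679 ± 70.8 CPM. It was above the control mean in 5 of 6 tumour-bearing WT and 6 of 6 Stat3-deleted livers, by 0.52 (SE 0.16, adjusted p = 0.086) and 0.41 (SE 0.16, adjusted p = 0.13). The first passed with DESeq2 (adjusted p = 0.037) and when replicate 1 or 2 of the tumour-bearing WT group was left out (adjusted p = 0.038 and 0.028), and the second with voom (adjusted p = 0.047) and in a fit of the 2 groups alone (adjusted p = 0.046). Serpinf2 is the one member on chromosome 11, 25.46 Mb from Stat3.

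None of the 7 tested procoagulant factors was called by edgeR in any comparison, where 2.25%, 6.12% and 4.85% of all tested genes were called. Shares of that size leave few calls among any 7 genes. At an unadjusted p under 0.05, 1 was higher in the first comparison, 2 lower in the second and 1 higher in the third. Among all tested genes 8.63%, 8.7% and 9.35% were higher and 7.56%, 10.7% and 11.5% lower at that level. DESeq2 called 0 of the 7 factors in each comparison, and voom called 1, F2, in the comparison of Stat3-deleted with control livers. Of all 11218 tested genes voom called 1318 there. F2, prothrombin, read 917 to 1644 CPM (median 1245) in control, 1365 to 3518 (median 1605) in WT tumour-bearing livers and 1516 to 2057 (median 1727) in Stat3-deleted livers. Against control the differences were 0.59 (SE 0.20, adjusted p = 0.13) and 0.46 (SE 0.20, adjusted p = 0.19), above the control mean in 6 of 6 livers of each group. Here the Stat3-deleted livers stayed near the tumour-bearing WT level, with a difference of -0.13 (95% interval -0.55 to 0.28). Within the lower and higher runs the first difference was 0.17 and 0.96, and without tumour-bearing WT replicate 6 it was 0.32.

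The other procoagulant factors are given by their means. F5, the cofactor of factor Xa, averaged 1001 ± 144, 1159 ± 371 and 1194 ± 150 CPM. F8, the cofactor of factor IXa and in liver a product of endothelial cells, averaged 53.8 ± 11.5, 46.9 ± 20.0 and 44.0 ± 10.1 CPM. F7, the protease that pairs with tissue factor, averaged 83.5 ± 9.52, 99.9 ± 27.0 and 86.3 ± 21.2 CPM. F13b, the carrier subunit of the fibrin-crosslinking factor XIII, averaged 284 ± 85.7, 330 ± 38.8 and 284 ± 47.9 CPM. None of these 4 had an unadjusted p under 0.05 in any comparison. Both F9 and F10, the proteases of the tenase step, were at lower levels in Stat3-deleted than in tumour-bearing WT livers without passing the adjusted test. F9 averaged 309 ± 77.7, 371 ± 78.7 and 288 ± 28.2 CPM, a difference of -0.37 (95% interval -0.70 to -0.03, adjusted p = 0.21), and F10 averaged 661 ± 80.8, 749 ± 95.8 and 590 ± 79.2 CPM, a difference of -0.34 (-0.61 to -0.08, adjusted p = 0.13).

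The 7 members whose proteins depend on vitamin K (F2, F7, F9, F10, Proc, Pros1 and Proz) cut across these roles, and edgeR called 0 of 7 in each comparison. Of all tested genes it called 2.25%, 6.12% and 4.85%, shares that leave few calls among any 7 genes. At an unadjusted p under 0.05, 2 were higher in the first comparison, 3 lower in the second and 2 higher in the third. Among all tested genes 8.63%, 8.7% and 9.35% were higher and 7.56%, 10.7% and 11.5% lower at that level. Of the 7 members DESeq2 called 1, 0 and 0, and voom called 0, 1 and 2. Over all 11218 tested genes DESeq2 called 462 in the first comparison, and voom 1097 in the second and 1318 in the third. Their log2 differences ran from 0.01 to 0.77 in the first comparison, from -0.70 to 0.37 in the second and from -0.16 to 0.46 in the third. Of the enzymes that serve them edgeR called neither. Ggcx, the gamma-glutamyl carboxylase, averaged 38.3 ± 4.97, 43.5 ± 7.42 and 38.5 ± 5.71 CPM. Vkorc1, the vitamin K epoxide reductase that warfarin blocks, averaged 286 ± 24.2, 315 ± 64.8 and 352 ± 45.1 CPM, with a difference of 0.30 between Stat3-deleted and control livers (95% interval 0.02 to 0.58, adjusted p = 0.21), which voom called (0.32, adjusted p = 0.046). Of the words at its 3′ end 60% also occur in the annotated gene Gm21974 on the same strand, so its counts are uncertain.

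Mcfd2 and Lman1 together form the receptor that carries factors V and VIII from the ER to the Golgi, and edgeR called 1 of them. Mcfd2, at chr17:87254443-87265947, read 84.9 to 125 CPM (median 109) in control, 79.8 to 152 (median 127) in WT tumour-bearing livers and 69.5 to 103 (median 84.8) in Stat3-deleted livers. These ranges overlap, since 1 tumour-bearing WT liver, replicate 5, was the lowest of its group at 79.8. It was called lower in Stat3-deleted than in tumour-bearing WT livers, by -0.55 (SE 0.15, adjusted p = 0.028), and was below the control mean in 6 of 6 Stat3-deleted livers (-0.33, SE 0.15, adjusted p = 0.21). Leaving out any of 8 libraries ended the call, as did scaling by library totals (-0.47, adjusted p = 0.075) and the fit of the 2 groups alone (adjusted p = 0.057). Lman1 averaged 519 ± 148, 452 ± 106 and 498 ± 38.1 CPM, with a difference of 0.14 (95% interval -0.22 to 0.50) in the second comparison.

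Of hepatocyte growth factor and the 2 related proteases, Hgf was called by edgeR in 1 comparison. Hgf is made in liver mainly by stellate cells and acts on hepatocytes through the receptor Met; it lies at chr5:16553495-16619439. It had few counts, 23 to 89 per library, and read 7.19, 5.50, 6.74, 10.0, 7.40 and 6.54 CPM in control and 11.3, 11.7, 10.1, 11.3, 6.40 and 4.69 CPM in tumour-bearing WT livers. In Stat3-deleted livers it read 3.68, 5.26, 3.50, 7.47, 6.26 and 2.97 CPM. Replicates 5 and 6 of the tumour-bearing WT group lay among the Stat3-deleted livers and the other 4 above all of them. The difference was -0.92 (SE 0.26, adjusted p = 0.034), and against control it was -0.57 (SE 0.26, adjusted p = 0.21). Leaving out any of 8 libraries ended the call, and library totals gave -0.89 (adjusted p = 0.068). Stellate cell markers, 13 of 13 measured, summed to 553 to 804, 469 to 981 and 604 to 999 CPM in the 3 groups, and their part in the Hgf value was not tested.

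Hgfac, the activator of the growth factor precursor, averaged 181 ± 32.1, 191 ± 42.8 and 244 ± 47.2 CPM. Its mean was highest in Stat3-deleted livers, all 6 of them above the control mean, without passing the test (0.43, 95% interval 0.10 to 0.77, adjusted p = 0.12). Habp2, a plasma protease that can activate factor VII, averaged 23.1 ± 8.11, 30.3 ± 12.5 and 24.2 ± 4.25 CPM, with intervals of -0.10 to 0.88 and -0.81 to 0.17.

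**Figure D3:**
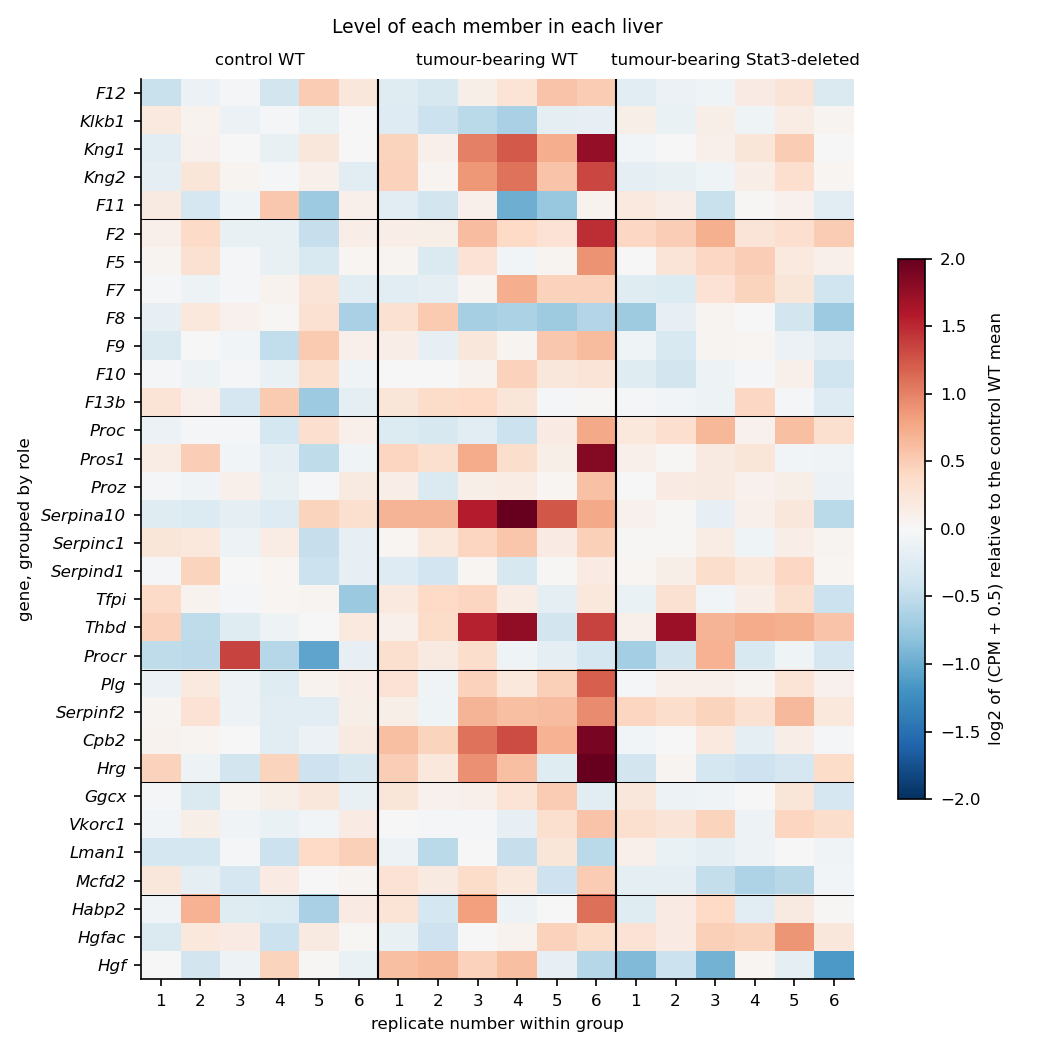
Level of the 32 tested genes in each of the 18 livers, as log2 of CPM plus 0.5 relative to the mean of the control group; rows are genes by role, columns livers by group and replicate number. Red cells gather in the tumour-bearing WT block in the rows of Kng1, Kng2, Serpina10, Cpb2 and Hrg, and replicate 6 has the darkest Hrg cell.

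In all, edgeR called 24 of the 32 tested genes in none of the 3 comparisons. Of these 24 DESeq2 called 3 in at least 1 comparison (Pros1, Thbd, Serpinf2) and voom called 4 (F2, Proc, Serpinf2, Vkorc1). Comparison by comparison, edgeR called 2.25%, 6.12% and 4.85% of all 11218 tested genes. DESeq2 called 462, 897 and 860 of them, and voom 246, 1097 and 1318. How many of all tested genes were called in none of the 3 comparisons was not counted. Whether the clotting genes differ from all genes in this respect therefore cannot be told. The 95% interval of these 24 had a median half-width of 0.36 on the log2 scale, and lay within a 2-fold change either way for 21, 22 and 23 of them in the 3 comparisons. Counts of the 33 genes together were 1.60% ± 0.0943 of all counts in control, 1.95% ± 0.272 in WT tumour-bearing livers and 1.61% ± 0.0699 in Stat3-deleted livers (SD, n = 6 each). With Kng1 left out the shares were 1.33% ± 0.0912, 1.50% ± 0.155 and 1.34% ± 0.0378.

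Spread between livers differed by group as well as level. Over the 28 members of at least 10 CPM the median coefficient of variation was 16.9% in control, 26.1% in WT tumour-bearing livers and 13.8% in Stat3-deleted livers, against 19.2%, 23.0% and 17.2% over 6565 genes of that level. Relative to the control mean, Kng1 ran from 1.07 in tumour-bearing WT replicate 2 to 3.38 in replicate 6, Cpb2 from 1.37 to 3.74 and Kng2 from 1.04 to 2.54 in the same 2 livers. In all 3 genes the 6 livers had the same order, with replicate 4 next to replicate 6 and replicate 3 after it. Serpina10 ran from 1.60 to 4.30 with its highest value in replicate 4, and replicate 6 at 1.70. Hrg, F2, Plg and Pros1 stood at 5.28, 2.79, 2.29 and 3.61 in replicate 6, and at no more than 1.89 in the other 5 livers.

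**Figure D4:**
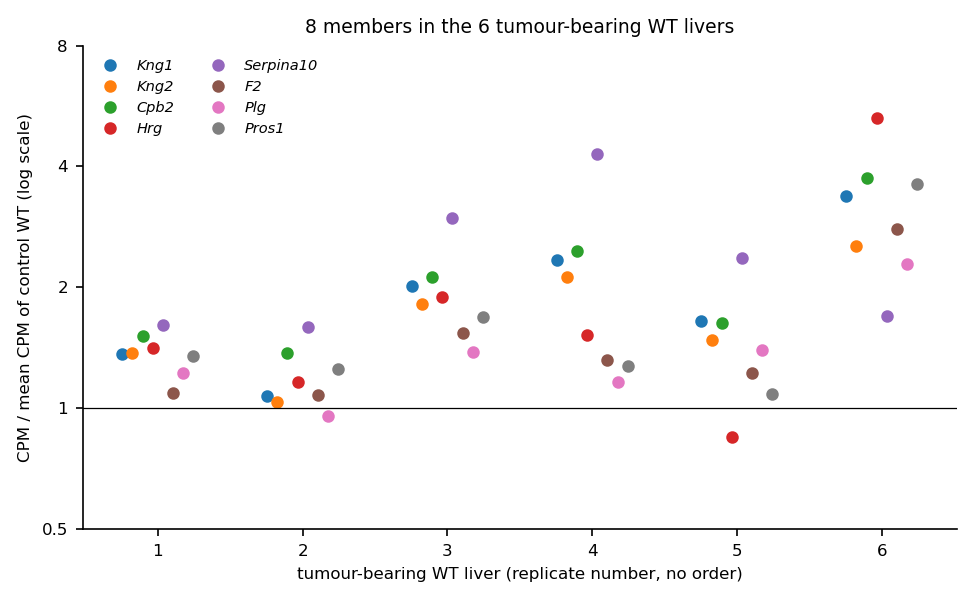
CPM of 8 members in the 6 tumour-bearing WT livers divided by the mean of the control livers, on a log2 axis; each colour is a gene and replicate numbers have no order. Replicate 6 is the highest liver of 7 of the 8 genes, and Serpina10 is the exception, highest in replicate 4 at 4.30.

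Beside the 33 genes, 32 further genes of clotting, fibrinolysis and growth factor activation were listed, of which 20 could be tested. In tumour-bearing WT against control livers 5 of the 20 were higher and 0 lower, with 8 at an unadjusted p under 0.05 in either direction. Of all tested genes 1.76% were called higher and 0.49% lower, and 8.63% and 7.56% had an unadjusted p under 0.05. The fibrinogen chains Fga, Fgb and Fgg had log2 differences of 1.61 (SE 0.19, adjusted p = 2.1e-05), 1.63 (SE 0.21, adjusted p = 5.2e-05) and 1.60 (SE 0.20, adjusted p = 3.1e-05). Fgb read 4540 to 6745 CPM in control, 10020 to 25890 in WT tumour-bearing livers and 4950 to 6323 in Stat3-deleted livers. Serping1, the C1 inhibitor, which also restrains kallikrein and factor XIIa, was higher by 0.91 (SE 0.17, adjusted p = 0.0033), and Gas6, a relative of protein S, by 1.75 (SE 0.43, adjusted p = 0.032). With Stat3 deleted the 3 fibrinogen chains were lower than in tumour-bearing WT livers, by -1.60, -1.54 and -1.84 for Fga, Fgb and Fgg, and no other gene of the 20 was called. In that comparison 3.23% of all tested genes were called lower and 2.89% higher. Against control livers Stat3-deleted livers had 0 of the 20 called, with 3 at an unadjusted p under 0.05. Of all tested genes 4.85% were called there, and 9.35% were higher and 11.5% lower at an unadjusted p under 0.05.

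Markers of other cells differed between the groups too. Neutrophil markers, of which 9 genes were found and 5 could be tested, summed to 23.9 to 52.9 CPM in control, 69.8 to 356 in WT tumour-bearing livers and 39.7 to 106 in Stat3-deleted livers. Of the 5 neutrophil markers 4 were called higher in the first comparison and 4 lower in the second (1.76% and 3.23% of all tested genes). Within the tumour-bearing WT group their sum was highest in replicate 4 (356), as was Serpina10, and was 177 in replicate 6. The Kupffer cell, monocyte and macrophage, biliary and endothelial sums were highest in replicate 4 as well. Hepatocyte, stellate cell and platelet sums were highest in replicate 6, and the lymphocyte sum in replicate 2. Kupffer cell markers summed to 497 to 1208, 824 to 1921 and 866 to 2094 CPM, and platelet markers to 13.6 to 24.5, 16.9 to 43.6 and 20.4 to 39.5 CPM. Biliary markers summed to 30.6 to 55.5, 43.5 to 148 and 28.4 to 43.7 CPM. Gp6, a platelet marker, was at 0 in every control and tumour-bearing WT liver, and Cd79a, a B-cell marker, in every control and Stat3-deleted liver. The part of these cells in the values of the clotting genes was not tested.

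Location of reads limits a few of the values. The last 1000 bases of Serpinc1, Serpind1, Plg and Habp2 overlap a gene on the other strand, and the strand setting of the counting is unknown here. F7, F10 and Proz are neighbours on chromosome 8, with gaps of 1499 and 3908 bases. EdgeR called none of these 3 in any comparison, nor F11 beside Klkb1, whereas the 3 neighbours Hrg, Kng2 and Kng1 on chromosome 16 were all lower with Stat3 deleted in tumour-bearing mice.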

How the data were processed

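RNA of 18 liver samples in 3 groups was read by Quantseq 3′ FWD sequencing (Lexogen), per the labels' protocols. The authors deposited raw counts per gene, 1 column per library; reads were aligned with STAR to mm10 per the submitters' processing notes, while versions, the counting tool, its annotation and its use of strand were not given in the sources used here. Columns were matched to samples by the numbers in the labels. Of 24421 rows 27 had only a number for a name and were left out (0.103% to 0.166% of counts). Each pair of libraries within a group differed by more than counting noise (chi-square per degree of freedom at least 8.26), so none was treated as a library deposited again; this does not show that they come from separate mice.

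R 4.3.3 with edgeR 4.0.16 was used: TMM factors (0.75 to 1.11), filterByExpr (11218 genes), glmQLFit over 3 group coefficients (15 residual degrees of freedom), glmQLFTest and Benjamini-Hochberg adjustment. SE is the log2 difference divided by the square root of F, CPM uses TMM-scaled totals, and the test was checked on simulated counts. Of 100 simulated 2-fold changes it recovered 74, 64 and 64 in the 3 comparisons, and of 100 4-fold changes 99, 100 and 98. It called 8, 10 and 9 unchanged genes. A gene not called can therefore hold a change of 2-fold or less that was missed. DESeq2 1.42.0, limma 3.58.1 (voom with sample weights), other scalings, filters, blocks, thinning to 5204378 counts and left-out libraries were alternatives. Positions, neighbours and promoters are from RefSeq GRCm38.p6, and 3′ ends from the GENCODE annotation of that assembly.

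The 33 genes and all lists were chosen with earlier results of these data known. The rule for naming genes was that every member is accounted for, that those called in any comparison are given by liver or by lowest, median and highest, and that of the further pathway genes those called are named. Marker lists covered hepatocytes, endothelial, stellate, Kupffer, monocyte, neutrophil, platelet, biliary and lymphocyte genes. Sums of 2 lists are given only here: monocyte and macrophage 73.8 to 213, 138 to 332 and 145 to 427 CPM, and lymphocyte 4.39 to 40.6, 4.95 to 16.7 and 6.26 to 14.8 CPM in control, tumour-bearing WT and Stat3-deleted livers.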

Additional observations from a re-analysis of the deposited data

Results flagged for a closer look

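In 10 of 96 sets of 6 livers (32 genes in 3 groups) the highest liver lay so far from the next that the gap exceeded Dixon's critical share of the range. That critical share is set to flag about 1 in 20 independent sets of normally distributed values, lowest and highest livers together. The 96 sets share the same livers and their CPM values need not be normally distributed, so this rate is no measure of chance here. Of the 10, 4 are in the same liver, tumour-bearing WT replicate 6: F2 at 3518 CPM (next highest 1940), Pros1 at 217.6 (next 101.6), Plg at 4452 (next 2714) and Hrg at 2035 (next 729). Its values of these genes, and its hepatocyte marker sum of 168800 CPM, were each the highest of the group, and what sets it apart was not tested. The other 6 fell in different livers. F10 read 820.7 CPM in control replicate 5, Procr 6.567 CPM in control replicate 3 and 3.977 CPM in Stat3-deleted replicate 3, both from few counts. F13b read 376.8 CPM in Stat3-deleted replicate 4, Thbd 18.92 CPM in Stat3-deleted replicate 2 and Hgfac 332.6 CPM in Stat3-deleted replicate 5.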

How the results depend on the processing

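For tumour-bearing WT against control livers 4 members were higher and 0 lower; DESeq2 gave 8 and 1, voom 4 and 1, library totals 4 and 1, the 2 groups alone 2 higher, the label-number run as a block 2, the lower run alone 1 and the higher run alone 0. All tested genes called, 252, became 462 with DESeq2, 128 in the 2 groups alone, 126 with the run as a block and 38 and 50 in the lower and higher runs. Leaving out 1 library gave 4 to 7 higher (7 without tumour-bearing WT replicate 5), 0 to 0 lower and 132 to 462 genes. For Stat3-deleted against tumour-bearing WT livers 1 member was higher and 7 lower; voom gave 2 higher, no filter 0, and the 2 groups alone 0 higher and 3 lower, and voom called 1097 genes in place of 686. Leaving out 1 library gave 0 to 2 higher, 4 to 8 lower and 469 to 906 genes. For Stat3-deleted against control livers, with 0 and 0, voom gave 4 higher and the 2 groups alone 3, and DESeq2, voom and the 2 groups alone called 860, 1318 and 894 genes in place of 544. Leaving out 1 library gave 0 to 0 in both directions and 258 to 783 genes. Same-numbered livers correlated at -0.13 to 0.31 in their deviations from group means, and at most 1 liver per pair of groups correlated best with its own number. Weak correlation does not exclude that same-numbered WT livers, whose label numbers are close, form pairs. A replicate block over all groups gave 4 higher and 0 lower, 1 and 7, and 0 and 0 members, and 219, 710 and 570 genes. A paired fit of the 2 WT groups alone was not run. No called value changed sign under an alternative. Library totals as the scaling moved the share of calls that were higher from 78.2% to 39.4%, 47.2% to 61.1% and 45.2% to 27.2%. Where a call changed, the cause was not tested, except that the 2-group and single-run fits hold fewer livers. Low counts limit Hgf, Thbd, Tfpi, Procr and F3.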
